A study of Mus musculus with 11 samples.

Results

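Mucins and the genes that equip a cell to secrete mucus were described in lung tumors and normal lungs of mice. The 8 genes were chosen by name and were the mucins Muc1, Muc4, Muc5ac, Muc5b and Muc20, the mucin-folding enzyme Agr2, the transcription factor Spdef and the antibody carrier Pigr. They account for 9 of 36285 transcript rows, which were summed by gene symbol to 8 of 24515 genes, and all 8 had enough counts to be tested.

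RNA was sequenced from 11 mouse lung libraries: 3 tumors tagged ADN, 3 tumors tagged ADC and 5 adjacent normal lungs. What the tags stand for is not written in the labels, so ADN and ADC are kept as names. All 5 mice lacked Gprc5a (Gprc5a-/-), a receptor of the lung epithelium, and all had received the tobacco nitrosamine NNK into the peritoneum at 50 mg per kg in each dose, with 3 doses weekly over 8 weeks. Neither wild-type nor NNK-free lungs were analysed here, so every value below is from a Gprc5a-/- mouse after NNK. The labels give neither the sex nor the age of the mice. Mouse m335 (4 months after NNK) carried tumors of both kinds, which are set against the same normal lung. The other ADN tumors came from mouse m368 (6 months) and mouse m350 (7 months), and the other ADC tumors from mice m372 and m378 (7 months each). Each tumor was compared with the normal lung of its own mouse, which asks how expression differs between tumor and lung under the same genotype and exposure.

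Mucins are large glycoproteins with stretches rich in serine and threonine that carry O-linked sugar chains. Muc5ac and Muc5b are secreted and form the gel of airway mucus, whereas Muc1, Muc4 and Muc20 are anchored in the apical membrane of epithelial cells. In the mouse airway Muc5b is made at baseline by secretory cells and Muc5ac is made mainly when goblet cells form under allergic inflammation, with Spdef driving that change and Agr2 helping mucins to fold in the endoplasmic reticulum. Pigr carries polymeric IgA across the epithelium into the mucus.

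Sequences upstream of 4 of the genes are shown because Muc4 was the member that passed the test in tumors, Agr2 and Spdef varied together across the libraries, and Muc20 held a match to a searched motif. Each is the 250 bases before the transcription start in RefSeq (GRCm38.p6), written 5′ to 3′ on the strand of the gene. The positions are chr16:32735636-32735885 on the plus strand for Muc4, chr12:35992675-35992924 on the plus strand for Agr2, chr17:27728952-27729201 on the minus strand for Spdef and chr16:32797436-32797685 on the minus strand for Muc20. The Spdef window lies within the span of the RefSeq gene, which reaches farther upstream. Capitals mark the motif match.
Muc4: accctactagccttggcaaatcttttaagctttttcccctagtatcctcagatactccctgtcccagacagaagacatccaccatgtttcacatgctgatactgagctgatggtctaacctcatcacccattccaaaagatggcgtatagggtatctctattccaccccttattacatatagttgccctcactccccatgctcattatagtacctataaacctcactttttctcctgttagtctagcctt
Agr2: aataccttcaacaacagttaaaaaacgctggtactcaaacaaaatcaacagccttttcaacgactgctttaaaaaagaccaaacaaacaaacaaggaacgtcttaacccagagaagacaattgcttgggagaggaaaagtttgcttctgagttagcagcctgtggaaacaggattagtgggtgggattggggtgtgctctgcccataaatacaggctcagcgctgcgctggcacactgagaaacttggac
Spdef: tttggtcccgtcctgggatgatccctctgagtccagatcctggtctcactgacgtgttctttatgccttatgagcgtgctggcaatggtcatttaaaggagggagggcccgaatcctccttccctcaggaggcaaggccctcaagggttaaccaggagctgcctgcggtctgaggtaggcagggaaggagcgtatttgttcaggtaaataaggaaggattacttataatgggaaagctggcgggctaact
Muc20: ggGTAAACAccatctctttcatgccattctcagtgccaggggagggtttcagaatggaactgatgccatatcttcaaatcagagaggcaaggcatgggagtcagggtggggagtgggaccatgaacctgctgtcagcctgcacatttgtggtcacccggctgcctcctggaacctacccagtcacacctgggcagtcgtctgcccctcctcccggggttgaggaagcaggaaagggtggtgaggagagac

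Promoter windows were given for 6 of the 8 members (Muc1, Muc4, Muc20, Agr2, Spdef and Pigr). They were searched on both strands for CCGGATG, a core bound by SPDEF, for TGTTTAC, bound by FOXA factors, and for TGAGTCA, bound by AP-1. Of 32851 mouse promoter windows of the same length, 1.79% held the SPDEF motif, 3.17% the FOXA motif and 4.46% the AP-1 motif. Among the 6 members the search gave 1 match, a FOXA motif on the opposite strand of the Muc20 window that starts 248 bases before the transcription start. The match describes letters in the window and does not show binding.

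Levels are given as CPM, the usual unit of counts scaled to the size of the library, here after TMM scaling between libraries, and are not corrected for gene length. Per library they are listed in the order of mice m335, m368 and m350 for ADN tumors, m335, m372 and m378 for ADC tumors, and m335, m368, m350, m372 and m378 for normal lungs. Changes are fitted log2 fold changes within mouse ± standard error (SE) from edgeR's quasi-likelihood test, tumor over normal lung, and a gene is called when its Benjamini-Hochberg adjusted p over all 15764 genes tested is under 0.05. Replicates are different tumors and mice, apart from the pair of tumors of mouse m335, and the labels do not say whether a tumor was pooled with others.

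Libraries held between 19938822 and 46987587 counts, the extremes being the normal lung and the tumor of mouse m372, and the ribosomal precursor Rn45s took 7.29% to 19.2% of them. The 8 genes together had between 10476 and 43096 counts in a library. Gprc5a had 0 to 19 counts in every library, which was below the filter for testing. Summed markers of epithelial cells in general (such as Epcam and Cdh1) were 1980 to 4570 CPM in tumors and 949 to 1590 CPM in normal lungs, and 7 of 9 were called higher in tumors. Summed endothelial markers were 505 to 918 CPM in tumors and 2540 to 4100 CPM in normal lungs, with 7 of 7 called lower. Summed skeletal muscle and fat markers were 0.498 to 5.01 CPM in tumors and 22.9 to 360 CPM in normal lungs. Summed thymus and lymphoid markers were 443 CPM in the ADC tumor of mouse m335 and 32.8 to 80.2 CPM in the other tumors, against 838 CPM in the normal lung of mouse m372 and 115 to 374 CPM in the other normal lungs. The highest sums came from different genes. Rag1 had 211 CPM in the normal lung of mouse m372 and 0 CPM in the ADC tumor of mouse m335, whereas Cd79a had 82.4 and 214 CPM. The part of all these markers in the results was not tested. In such bulk tissue, a change in the number of cells of a type and a change in RNA per cell cannot be told apart.

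The membrane mucin Muc4 rose in tumors, to a mean of 71.4 ± 25.2 CPM (SD, n = 6), against 33.4 ± 11.0 CPM (SD, n = 5) in normal lungs. Muc1, the most abundant member, averaged 801 ± 260 CPM in tumors and 520 ± 86.9 CPM in normal lungs. Spdef, the goblet cell regulator, averaged 3.48 ± 1.91 CPM in tumors and 0.878 ± 0.413 CPM in normal lungs. The gel mucin Muc5b averaged 27.0 ± 23.1 CPM in tumors and 5.35 ± 4.56 CPM in normal lungs, with tumors on both sides of the normal range. Muc4 was the member called by edgeR, and the other 7 were not.

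Across the 8 genes, 1 was called in tumors against normal lungs, and 3 had an unadjusted p under 0.05. Of all genes tested, 11.1% were called in that comparison and 3.45% were called higher. The member called was called higher, and with 8 members 1 call gives no firm share to set beside these. Fitted changes were above 0 for 7 of 8 members with a median of 0.89 on the log2 scale, beside a median of -0.04 over all genes. In ADN tumors against normal lungs edgeR called 0 members, with 2 at an unadjusted p under 0.05, and it called 7.24% of all genes. DESeq2 called 2 members there, beside 3003 genes in all. In ADC tumors against normal lungs edgeR called 0 members, with 1 at an unadjusted p under 0.05, and it called 4.78% of all genes. DESeq2 called 0 members there, beside 1863 genes in all. The share of all genes at an unadjusted p under 0.05 is not given here, so those member counts have no background. The members' median change was 1.05 in ADN tumors, against -0.10 over all genes, and 0.72 in ADC tumors, against -0.01 over all genes. These comparisons share the normal lungs, so their values are not independent of each other.

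**Figure D1:**
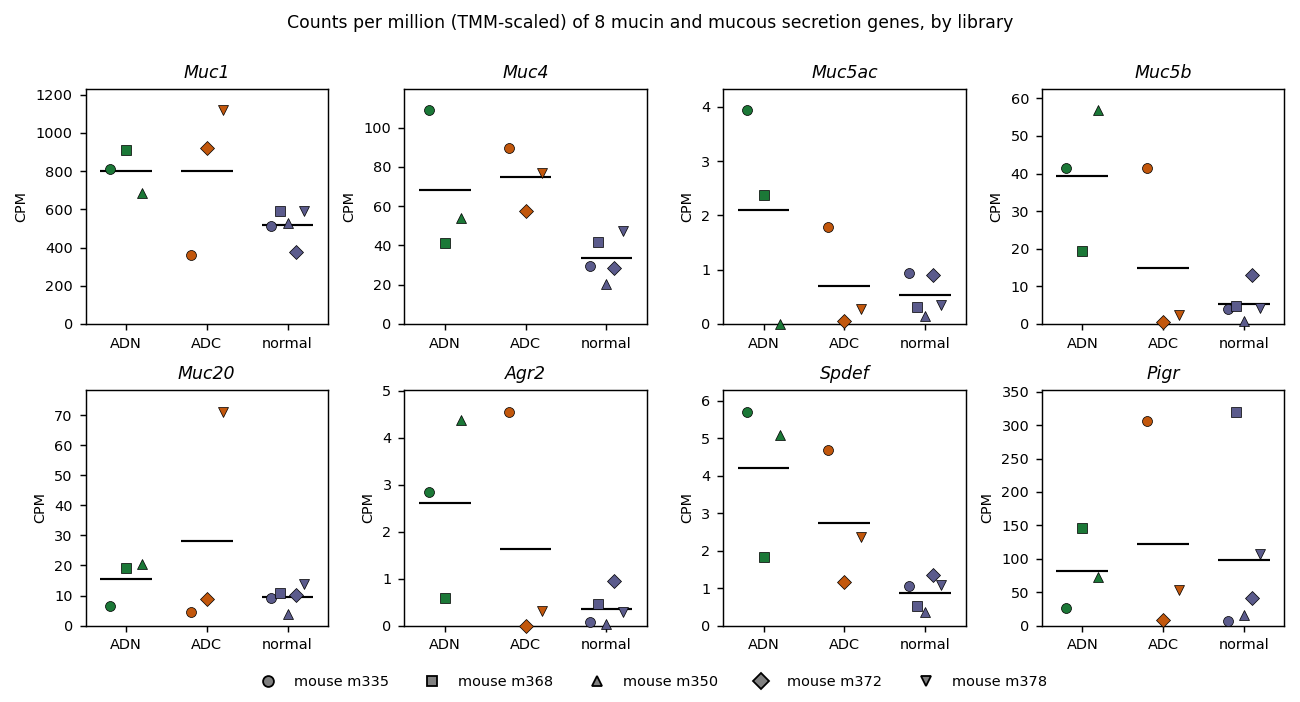
CPM of each of the 8 genes (vertical axes, linear) in ADN tumors, ADC tumors and normal lungs, with 1 point per library, a symbol for each mouse and a line at the group mean (n = 3, 3 and 5). Muc4 is above the normal range in 5 of 6 tumors, whereas Pigr in tumors lies inside the range of normal lungs.

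Muc4 (chromosome 16, 32735886 to 32782391 on the plus strand, GRCm38.p6) encodes a long membrane mucin that can bind the receptor ErbB2. It had 109, 41.4 and 53.9 CPM in ADN tumors. In ADC tumors it had 89.4, 57.4 and 77.1 CPM. Normal lungs had 29.3, 41.6, 20.3, 28.3 and 47.5 CPM. All 3 ADC tumors were above every normal lung, and the ADN tumor of mouse m368 lay within the normal range, level with its own normal lung. Against its own normal lung Muc4 was 3.72-fold in the ADN tumor and 3.05-fold in the ADC tumor of mouse m335, 2.66-fold in mouse m350, 2.03-fold in mouse m372, 1.62-fold in mouse m378 and 0.995-fold in mouse m368.

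The fitted change of Muc4 in tumors was 1.01 ± 0.26 (log2 ± SE, adjusted p = 0.0384, higher in 5 of 6 tumors), or 2.02-fold. In ADN tumors it was 1.06 ± 0.34 (adjusted p = 0.102) and in ADC tumors 0.97 ± 0.34 (adjusted p = 0.171). The call in tumors rests on small margins. It was lost without the ADN tumor (adjusted p = 0.0603) or the normal lung (0.117) of mouse m335. It was also lost without the tumor of mouse m350 (0.132), m372 (0.113) or m378 (0.0905). Leaving out the normal lung of mouse m350 (0.131), m372 (0.109) or m378 (0.0907) is nearly the same fit, because the tumor left has no partner within its mouse. Over all 25 settings, the reported fit included, the change stayed above 0, between 0.78 and 1.26, with adjusted p between 0.0016 and 0.133, and was called in 11.

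Muc1 (chromosome 3, 89229056 to 89233381, plus strand) encodes a membrane mucin of most simple epithelia, and alveolar type 2 cells make it in the normal lung. ADN tumors had 812, 908 and 684 CPM. ADC tumors had 360, 922 and 1120 CPM. The 5 normal lungs had 511, 590, 530, 379 and 592 CPM. All 3 ADN tumors were above every normal lung, and the ADC tumors held both the highest level and the lowest level of the 11 libraries.

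The fitted change of Muc1 was 0.64 ± 0.27 in tumors (unadjusted p = 0.0403, adjusted p = 0.170, higher in 5 of 6 tumors), 0.74 ± 0.34 in ADN tumors (adjusted p = 0.238) and 0.52 ± 0.38 in ADC tumors (adjusted p = 0.534). Once the ADC tumor of mouse m335 was left out, the change was 0.82 in tumors (adjusted p = 0.00845) and 1.13 in ADC tumors (adjusted p = 0.0315). Over all settings adjusted p ranged between 0.00845 and 0.394 in tumors, and it reached 0.928 in ADC tumors. In that ADC tumor the summed level of 8 alveolar type 2 markers was 33100 CPM, against 98900 to 130000 CPM in the other 5 tumors and 39900 to 54000 CPM in normal lungs. The part of alveolar type 2 content in the Muc1 level was not tested.

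Muc20 (chromosome 16, 32777419 to 32797435, minus strand) encodes a membrane mucin reported to bind the receptor MET in human cells. ADN tumors had 6.58, 19.0 and 20.6 CPM, and ADC tumors had 4.61, 8.92 and 71.1 CPM. Normal lungs had 9.07, 10.7, 3.78, 10.1 and 13.8 CPM. In mouse m335 both tumors lay below their normal lung, and in mouse m378 the ADC tumor was 5.15-fold above it. The fitted change was 0.77 ± 0.50 in tumors (adjusted p = 0.375), and 3 of 6 tumors were higher than their own normal lung. In ADC tumors it was 0.48 ± 0.68 (adjusted p = 0.776), and without the ADC tumor of mouse m378 it was -0.32 (adjusted p = 0.911).

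Muc20 and Muc4 lie on opposite strands and share 4973 bases of their spans. Of the pair of Muc20 transcripts in the files, the longer shares 381 exon bases with Muc4, or 10.4% of its length, and the shorter shares 0. Whether the counting used strand is not stated, so reads of the shared bases may have gone to either gene. The longer transcript took 73.7% of Muc20 counts in the ADN tumor of mouse m335, the library with the highest Muc4, and 7.06% to 25.9% in the other 10 libraries. 

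The 3 membrane mucins followed each other loosely. Across the 11 libraries the Pearson correlation of log2 CPM was 0.633 between Muc1 and Muc20, 0.366 between Muc1 and Muc4 and 0.228 between Muc4 and Muc20. These are descriptions over libraries that share mice and tumor or normal identity, and no test was made.

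Muc5b (chromosome 7, 141839059 to 141873089, plus strand) is the gel-forming mucin made by airway secretory cells at baseline. ADN tumors had 41.5, 19.4 and 56.9 CPM. ADC tumors had 41.5, 0.602 and 2.33 CPM. Normal lungs had 3.97, 4.72, 0.743, 13.0 and 4.31 CPM. All 3 ADN tumors and the ADC tumor of mouse m335 were above every normal lung, whereas that of mouse m372 was below every one and that of mouse m378 below its own. The ADN tumor of mouse m350 had 76.6-fold the level of its own normal lung, which was the lowest of the 5, and the ADC tumor of mouse m372 had 0.0463-fold the level of its own, which was the highest. That normal lung also had the most Scgb1a1, with 20200 CPM against 1800 to 6310 CPM in the other normal lungs, and its part in this ratio was not tested.

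Log2 differences of Muc5b between the tumors and their own normal lungs ran from -4.29 to 6.14, and its fitted change was not called. The fitted change was 1.64 ± 1.54 in tumors (adjusted p = 0.564, higher in 4 of 6 tumors). It was 2.75 ± 1.63 in ADN tumors (adjusted p = 0.355) and 0.33 ± 1.60 in ADC tumors (adjusted p = 0.943). In ADN tumors it was called when the ADC tumor of mouse m335 was left out (3.80, adjusted p = 0.0465), and adjusted p ranged up to 0.710 over the other settings. In ADC tumors the sign was not stable: the change was -2.57 without mouse m335 (adjusted p = 0.344) and -0.24 without mouse m350 (adjusted p = 0.959).

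Muc5ac, its neighbor on chromosome 7 (141788958 to 141819227, 19831 bases from Muc5b, plus strand), encodes the gel mucin of goblet cells and was near the floor of detection. ADN tumors had 3.94, 2.37 and 0 CPM, and ADC tumors had 1.78, 0.0463 and 0.277 CPM. Normal lungs had 0.935, 0.311, 0.155, 0.906 and 0.342 CPM. The largest level was 118 counts, and the 0 in the ADN tumor of mouse m350 allows up to 3 counts, or 0.107 CPM, from counting error alone. Both tumors of mouse m335 and the ADN tumor of mouse m368 were above every normal lung, and the ADN tumor of mouse m350 and the ADC tumor of mouse m372 were below every one. The fitted change was -0.22 ± 1.21 in tumors (adjusted p = 0.935), 0.71 ± 1.65 in ADN tumors (adjusted p = 0.840) and -0.96 ± 1.43 in ADC tumors (adjusted p = 0.789).

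The gel mucins did not take the same tumors to their highest levels: Muc5b was highest in the ADN tumor of mouse m350, where Muc5ac was at 0. Per kilobase of transcript, Muc5b averaged 1.81 ± 1.55 CPM in tumors and 0.357 ± 0.305 in normal lungs, and Muc5ac 0.170 ± 0.192 in tumors and 0.0642 ± 0.0441 in normal lungs. Muc1 stood far above both, with 357 ± 116 CPM per kilobase in tumors and 232 ± 38.8 in normal lungs, followed in tumors by Pigr with 26.5 ± 28.8, Muc20 with 8.83 ± 10.3, Muc4 with 6.33 ± 2.23, Agr2 with 2.69 ± 2.65 and Spdef with 1.81 ± 0.996. In normal lungs Pigr had 25.5 ± 33.8, Muc20 3.84 ± 1.46, Muc4 2.96 ± 0.974, Agr2 0.464 ± 0.473 and Spdef 0.457 ± 0.215 (SD, n = 6 tumors and n = 5 normal lungs). The places of Pigr, Muc20 and Muc4 in this order, and those of Muc5b, Agr2 and Spdef, lie within the spread between libraries.

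**Figure D2:**
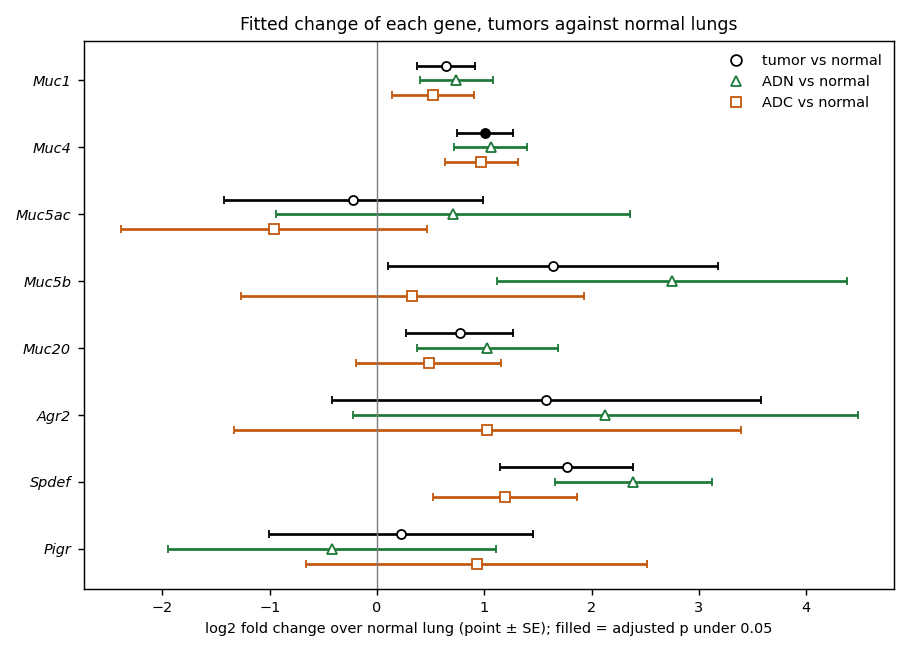
Fitted log2 fold change of each gene over normal lung (horizontal axis, point ± SE) for all tumors, ADN tumors and ADC tumors; a filled point has an adjusted p under 0.05. Muc4 in all tumors (1.01 ± 0.26) is the filled point, and the errors of Muc5b, Muc5ac, Agr2 and Pigr are above 1 in every comparison drawn.

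Spdef (chromosome 17, 27714446 to 27731003, minus strand) is an ETS family transcription factor needed for goblet cells in mouse airways. It had 5.71, 1.84 and 5.09 CPM in ADN tumors and 4.68, 1.16 and 2.37 CPM in ADC tumors. Normal lungs had 1.05, 0.528, 0.372, 1.36 and 1.08 CPM. These levels were low, between 50 and 171 counts in tumors and between 12 and 38 counts in normal lungs. All tumors but the ADC tumor of mouse m372 were above every normal lung, and 5 of 6 were above their own.

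The fitted change of Spdef was 1.77 ± 0.62 in tumors (unadjusted p = 0.0186, adjusted p = 0.106), 2.39 ± 0.73 in ADN tumors (adjusted p = 0.0898) and 1.19 ± 0.67 in ADC tumors (adjusted p = 0.407). The call turned with the model. DESeq2 called it in tumors (1.80, adjusted p = 0.00862) and in ADN tumors (2.45, adjusted p = 0.00364), and so did edgeR without the replicate block (1.98 and adjusted p = 0.0250 in tumors, 2.26 and adjusted p = 0.0311 in ADN tumors). With the ADC tumor of mouse m335 removed, Spdef was called in ADN tumors (2.72, adjusted p = 0.0412). Adjusted p reached 0.304 in tumors and 0.297 in ADN tumors under the other settings, and the change stayed above 0 in all 25.

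Agr2 (chromosome 12, 35992925 to 36004081, plus strand) is a protein disulfide isomerase of the endoplasmic reticulum that mouse intestine needs to make its mucin. It had 2.84, 0.592 and 4.38 CPM in ADN tumors and 4.55, 0 and 0.316 CPM in ADC tumors. Normal lungs had 0.085, 0.466, 0.0310, 0.951 and 0.285 CPM. In counts this was 85, 17 and 123 in ADN tumors, 135, 0 and 8 in ADC tumors, and 1 to 21 in normal lungs. The 0 in the ADC tumor of mouse m372 allows up to 3 counts, or 0.0695 CPM. Both tumors of mouse m335 and the ADN tumor of mouse m350 were above every normal lung, and the other 3 tumors were not. The fitted change was 1.58 ± 2.0 in tumors (adjusted p = 0.678), 2.13 ± 2.35 in ADN tumors (adjusted p = 0.645) and 1.03 ± 2.36 in ADC tumors (adjusted p = 0.871).

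**Figure D3:**
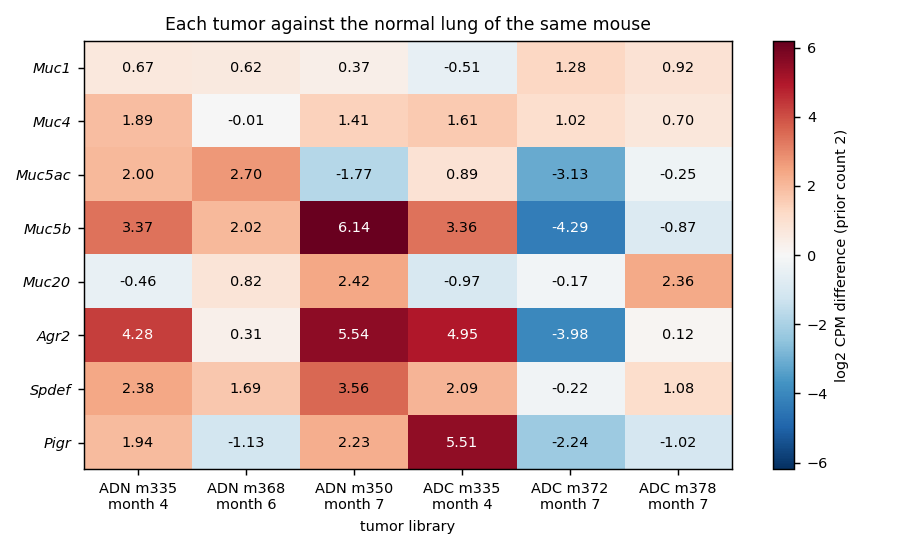
Log2 CPM of each tumor minus that of the normal lung of the same mouse (color and printed value, prior count 2), with genes in rows and tumors in columns under their mouse and month. Muc5b and Agr2 have their largest positive differences in the ADN tumor of mouse m350 (6.14 and 5.54) and are lowest in the ADC tumor from mouse m372 (-4.29 for Muc5b, -3.98 for Agr2).

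Muc5b, Agr2 and Spdef followed each other from library to library. The Pearson correlation of log2 CPM over the 11 libraries was 0.953 between Muc5b and Agr2, 0.804 between Agr2 and Spdef and 0.786 between Muc5b and Spdef, and the Spearman correlations were 0.936, 0.755 and 0.709. Muc4 followed Spdef with 0.793, and Muc1 against Muc5b gave -0.227. These values describe 11 libraries that share mice, and tumors hold most of the high points, so no p is given.

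**Figure D4:**
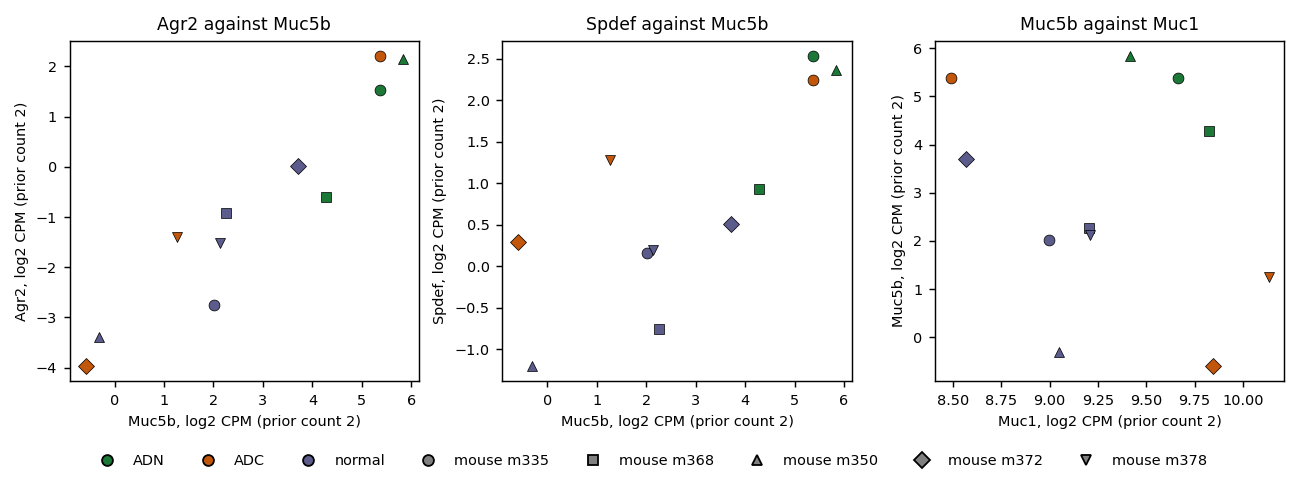
Log2 CPM (prior count 2) of Agr2 and of Spdef against Muc5b, and of Muc5b against Muc1, with 1 point per library, colored by group and shaped by mouse. In the first panel the points climb together (Pearson r = 0.953), and in the last they do not (r = -0.227).

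Among 15756 other genes, the 3 most like Muc5b over the 11 libraries were Crocc2 (r = 0.955), Aoc1 (0.948) and Psapl1 (0.940). For Agr2 they were Tmc5 (0.951), Cdhr1 (0.949) and Dnah5 (0.928), and for Spdef Ift22 (0.934), Scgb3a1 (0.916) and Padi1 (0.916). Muc1 was most like Tmem163 (0.960), Ap3s2 (0.955) and Nucb2 (0.955), and Muc4 most like Ufc1 (0.944), Gm6548 (0.934) and Prdx3 (0.912). For Muc20 the genes were Pex11g (0.894), Ceacam10 (0.885) and Lrrn1 (0.853), for Muc5ac Nrp (0.918), Cnih2 (0.916) and Smim24 (0.885), and for Pigr Serpina10 (0.920), Tlr6 (0.892) and Evi2b (0.884). These are the highest of many correlations over few libraries.

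Dnah5 is also one of 8 ciliated cell markers, whose summed level was 743 to 1260 CPM in ADN tumors, 586 to 753 CPM in ADC tumors and 815 to 1210 CPM in normal lungs, with 0 of 8 called by edgeR in tumors. Tubb4b and Sec14l3 made up most of that sum in every library. Foxj1, the transcription factor of ciliated cells, had 37.6, 4.52 and 76.6 CPM in ADN tumors, 35.6, 3.57 and 18.6 CPM in ADC tumors and 12.0 to 63.8 CPM in normal lungs, so the tumors of mice m335 and m350 had more than the other tumors. Scgb3a1 is one of 8 club cell markers, whose sum was 1120 to 12000 CPM in tumors and 2700 to 23500 CPM in normal lungs. Scgb1a1 was the largest part of that sum in every normal lung. Bpifa1, also on that list, was the largest part in the ADN and ADC tumors of mouse m335 (1150 and 852 CPM), so the sum mixes genes that differ in direction. Summed basal cell markers were 42.4 and 39.1 CPM in the ADN and ADC tumors of mouse m335, 1.23 to 16.3 CPM in the other tumors and 5.53 to 18.2 CPM in normal lungs. Summed submucosal gland markers were 782 to 1650 CPM in tumors and 365 to 920 CPM in normal lungs, with Bpifb9b and Prol1 at 0 in every library. Aqp5, which is also on the alveolar type 1 cell list, was the largest part of that sum, with 541 to 1460 CPM in tumors and 362 to 907 CPM in normal lungs. Ltf, the lactoferrin gene, had 371, 69.4 and 59.4 CPM in ADN tumors, 287, 0.996 and 3.76 CPM in ADC tumors and 2.23 to 11.9 CPM in normal lungs. As for Muc5b, all 3 ADN tumors and the ADC tumor of mouse m335 were above every normal lung and the ADC tumors of mice m372 and m378 were not. The part of these cell types in the levels of Muc5b, Agr2 and Spdef was not tested.

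Pigr (chromosome 1, 130826684 to 130852249, plus strand), the polymeric immunoglobulin receptor, varied as much among normal lungs as among tumors. ADN tumors had 25.8, 146 and 72.6 CPM. ADC tumors had 306, 8.59 and 52.9 CPM. Normal lungs had 6.66, 320, 15.4, 41.0 and 107 CPM. No tumor lay outside the normal range, and the largest difference within a mouse was in the ADC tumor of mouse m335, with 45.9-fold the level of its normal lung.

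The fitted change of Pigr was 0.22 ± 1.23 in tumors (adjusted p = 0.936), -0.42 ± 1.53 in ADN tumors (adjusted p = 0.905) and 0.93 ± 1.59 in ADC tumors (adjusted p = 0.823). The sign in ADC tumors rested on mouse m335: leaving out its ADC tumor gave -1.60 (adjusted p = 0.318), leaving out its normal lung -0.40 (adjusted p = 0.918) and leaving out its ADN tumor -0.05 (adjusted p = 0.996). That tumor also had the highest levels of the antibody joining chain Jchain, with 738 CPM against 34.0 to 200 CPM in the other tumors and 56.7 to 163 CPM in normal lungs. Mzb1, a plasma cell gene, had 97.7 CPM there, against 2.29 to 4.64 CPM in the other tumors and 5.02 to 13.3 CPM in normal lungs. Pou2af1 was also highest in that tumor (48.2 CPM). The other plasma cell markers were not: Derl3 had 6.9 CPM, Tnfrsf17 0.168 CPM and Sdc1 500 CPM, its lowest level among the tumors. The summed level of all plasma cell markers was 866 to 1510 CPM in tumors and 459 to 581 CPM in normal lungs. Sdc1, which epithelial cells also make, was the largest part of that sum in every library but the ADC tumor of mouse m335. Whether plasma cell content plays a part in the Pigr level was not tested.

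The groups were also compared by overlap of their libraries. No member kept all 6 tumors apart from all 5 normal lungs, a pattern that 11.2% of all genes showed. Muc1, Muc5b and Spdef had all 3 ADN tumors above all normal lungs, as 9.05% of all genes did, and Muc4 had all 3 ADC tumors above all normal lungs, as 8.68% did. No member kept ADC and ADN tumors apart, as 10.2% of all genes did.

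ADC and ADN tumors were then compared directly. edgeR called 0 of 8 members, with 0 at an unadjusted p under 0.05, and it called 1 gene of 15764 (0.00634%). DESeq2 called 0 members, beside 136 genes in all. The ADC minus ADN difference was below 0 for 7 of 8 members. It was -2.41 ± 1.75 for Muc5b (95% interval -6.44 to 1.62), -1.20 ± 0.85 for Spdef (-3.15 to 0.74), -1.68 ± 1.64 for Muc5ac (-5.45 to 2.1) and -1.09 ± 2.34 for Agr2 (-6.46 to 4.28). For the membrane mucins it was -0.22 ± 0.47 for Muc1 (-1.30 to 0.86), -0.09 ± 0.41 for Muc4 (-1.03 to 0.85) and -0.55 ± 0.91 for Muc20 (-2.64 to 1.54), and for Pigr 1.35 ± 1.84 (-2.87 to 5.57). Adjusted p was 0.811 or more for each, and the intervals of Muc5b, Muc5ac and Agr2 include differences of several-fold either way. Only mouse m335 gave both kinds of tumor: Muc5b was 41.5 CPM in each, Spdef 4.68 CPM in the ADC and 5.71 CPM in the ADN tumor, and Agr2 4.55 CPM in the ADC and 2.84 CPM in the ADN tumor. For the other 4 tumors, kind and mouse cannot be told apart.

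Time after NNK also differs between the mice. Within the 3 mice at 7 months, which hold 1 ADN and 2 ADC tumors, Muc4 was 1.08 in tumors (adjusted p = 0.00516) and Muc1 0.90 (adjusted p = 0.0250). In the 2 ADC tumors of those mice Pigr was -1.59, in the opposite direction to the 3 ADC tumors together. Muc5b in those ADC tumors was -2.55. The fit of the tumor kinds holds 1 ADN tumor there, so its changes are given without p.

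The file held 10 of 15 further mucin and mucin-like genes, and 5 were tested. Podxl, a sialomucin of endothelial cells and kidney podocytes, fell in tumors (-1.91 ± 0.28, adjusted p = 0.00326), and no other member of the list was called by edgeR. It had 58.3 to 147 CPM in tumors and 228 to 485 CPM in normal lungs. Muc2, the gel mucin of the intestine, was at most 0.0463 CPM in tumors and 0.283 CPM in normal lungs and was below the filter.

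Of 32 genes that regulate goblet cells or are made by airway secretory cells, 25 were tested, and 3 were called higher and 0 lower in tumors. Over all 15764 genes tested, 544 (3.45%) were called higher and 1208 lower in tumors. In ADN tumors these were 406 higher and 735 lower, and in ADC tumors 154 higher and 599 lower. Those counts are the background for this list and for the other gene lists. Slc12a2, the chloride importer of secreting epithelia, had 185 to 566 CPM in tumors and 61.6 to 105 CPM in normal lungs (2.47 ± 0.27, adjusted p = 0.000965). The transcription factors Foxa2 (1.25 ± 0.26, adjusted p = 0.0161) and Foxa1 (1.08 ± 0.23, adjusted p = 0.0184) rose as well. Foxa2 restrains mucus production in mouse airways. The list's median change was 0.59, against -0.04 over all genes. In ADN tumors 5 were called higher, with Creb3l1 (2.86 ± 0.57, adjusted p = 0.0248) and Bpifa1 (4.03 ± 0.99, adjusted p = 0.0485) beside those 3, and in ADC tumors 1 was called higher, Slc12a2 (2.08 ± 0.29, adjusted p = 0.00896).

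Several secreted airway products were high in the same tumors as Muc5b. Bpifa1, an antimicrobial protein of the upper airway, had 1150, 314 and 217 CPM in ADN tumors, 852, 4.49 and 17.0 CPM in ADC tumors, and 8.64 to 39.8 CPM in normal lungs. Bpifb1, a relative made by goblet and gland cells, had 28.2, 9.12 and 13.1 CPM in ADN tumors, 22, 0.579 and 0.949 CPM in ADC tumors, and 0.372 to 1.36 CPM in normal lungs. In both, the ADN tumors and the ADC tumor of mouse m335 stood above every normal lung, the ADC tumors of mice m372 and m378 did not, and in mouse m372 the tumor was below its own normal lung. In tumors together Bpifa1 changed by 3.10 ± 1.05 (adjusted p = 0.0987) and Bpifb1 by 2.65 ± 1.05 (adjusted p = 0.149), so neither was called.

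Clca1, a goblet cell product of inflamed airways, had at most 3.27 CPM in tumors and 0.482 CPM in normal lungs (2.56 ± 0.86, adjusted p = 0.0969), and the trefoil peptide Tff2 at most 5.85 CPM in tumors and 0.652 CPM in normal lungs (2.30 ± 0.76, adjusted p = 0.0900). Foxa3, a goblet cell transcription factor, had 8.02, 5.39 and 0.213 CPM in ADN tumors, 0.909, 1.23 and 1.70 CPM in ADC tumors and 0.341 to 0.622 CPM in normal lungs (1.90 ± 0.83, adjusted p = 0.191). Fcgbp, an Fc-binding mucus protein, changed by -0.34 ± 0.27 (adjusted p = 0.482), and Ern2, the endoplasmic reticulum stress sensor of goblet cells, was at most 0.337 CPM and below the filter. Of the secretoglobins, Scgb1a1 was at -3.10 ± 0.96 (adjusted p = 0.0749) and Scgb3a2 at -1.81 ± 0.88 (adjusted p = 0.233), whereas Scgb3a1 had 59.1, 24.2 and 49.2 CPM in ADN tumors, 53.1, 9.61 and 7.12 CPM in ADC tumors and 1.92 to 6.08 CPM in normal lungs.

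**Figure D5:**
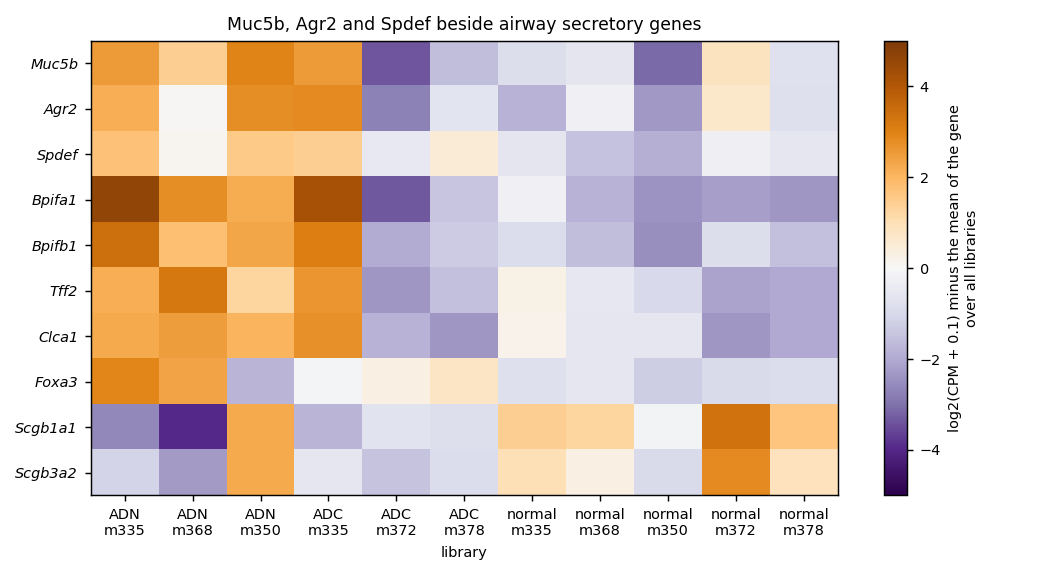
Log2(CPM + 0.1) minus the mean of the gene over the 11 libraries (color) for Muc5b, Agr2, Spdef and 7 airway secretory genes in rows, with ADN tumors, ADC tumors and normal lungs in columns. Orange cells of Muc5b, Bpifa1, Bpifb1, Tff2 and Clca1 gather in the 3 ADN tumors and the ADC tumor of mouse m335, whereas Scgb1a1 is high in normal lungs and in the ADN tumor of mouse m350.

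Enzymes that build O-linked sugars on mucins moved in both directions. Of 25, 22 were tested, and 3 were called higher and 3 lower in tumors, with a median change of 0.43. Fut2, which adds the terminal fucose of secretory mucins, had 3.97 to 34.4 CPM in tumors and 0.248 to 2.74 CPM in normal lungs (3.41 ± 0.51, adjusted p = 0.00348). Galnt3, an initiating transferase, had 14.8 to 22.4 CPM in tumors and 3.29 to 9.98 CPM in normal lungs (1.54 ± 0.30, adjusted p = 0.0132). Gcnt4, a branching enzyme, was called higher (3.89 ± 1.05, adjusted p = 0.0474), with 12.3 CPM in the ADN tumor of mouse m335 and 0.0791 to 3.55 CPM in the other tumors. Galnt18 (-1.88 ± 0.20, adjusted p = 0.000907), St6galnac2 (-0.98 ± 0.17, adjusted p = 0.00666) and Chst4 (-2.22 ± 0.52, adjusted p = 0.0272) fell. ADN tumors had 3 called higher and 1 lower, and ADC tumors 1 higher, Fut2 (2.87 ± 0.61, adjusted p = 0.0373), and 2 lower.

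Of 18 genes of mucin granule release and secretory folding, 17 were tested, and 3 were called higher in tumors, with a median change of 0.33. Rab27a, a small GTPase of secretory granules, had 97.0 to 285 CPM in tumors and 57.2 to 91.2 CPM in normal lungs (1.52 ± 0.24, adjusted p = 0.00435). Stxbp2, the syntaxin-binding protein of stimulated mucin release in mouse airways, had 79.1 to 133 CPM in tumors and 46.4 to 58.8 CPM in normal lungs (1.01 ± 0.17, adjusted p = 0.00603). In both genes all tumors were above all normal lungs, and 11.2% of all genes kept those groups apart in either direction. The foldase Pdia3 rose by 0.73 ± 0.20 (adjusted p = 0.0479). In ADN tumors 2 genes were called higher, and in ADC tumors edgeR called 0 in either direction.

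Of 14 measured genes of IgA transport and plasma cells, Sdc1 was called higher in tumors (1.19 ± 0.28, adjusted p = 0.0259), and the list's median was -0.18. Of 12 receptors and partners of membrane mucins, the protease St14 rose (1.25 ± 0.17, adjusted p = 0.00222) and the transcription factor Klf4 fell (-2.01 ± 0.48, adjusted p = 0.0287), with a median of 0.43. In the direct comparison of ADC with ADN tumors, edgeR called 0 genes of any of these 6 lists.

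The general epithelial genes Epcam (1.52 ± 0.20, adjusted p = 0.00183) and Cdh1 (1.0 ± 0.18, adjusted p = 0.00934) rose in tumors by amounts that bracket the change of Muc4. These markers move with the tumor comparison, and the part of epithelial content in the changes of Muc4, Fut2, Slc12a2, Rab27a and the others was not tested.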

How the data were processed

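Poly-A libraries were sequenced on an Ion Proton, per the labels' protocols. The tools named in the submitters' processing notes are STAR 2.4.1d, Bowtie2 2.1.0 and Partek, and the build is mm10. What each tool did, and which annotation and strand setting were used, is not given in the sources used here. The deposited values are expected counts per RefSeq transcript, not normalized by the authors. They were summed by symbol and rounded; 78.4% to 86.2% of sums were whole within 0.01 beforehand.

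Groups came from the title tags. Genes were kept by filterByExpr on the 3 groups, which left 15764 genes with 99.974% of counts, and scaled by TMM. The quasi-likelihood test of edgeR 4.0.16 (R 4.3.3, robust, two-sided) was fitted to all 11 libraries with the mouse as a block; SE came from the F statistic and 95% intervals from its degrees of freedom. The pairing follows the mouse named in each label. Checked across genes, the deviations of each tumor correlated with those of its own normal lung at 0.224, 0.102, 0.00417, -0.0381, -0.0231 and 0.241. Log2 CPM used a prior count of 2. The fit was also run on counts simulated without differences between mice. The outcome of that run is not reported here and backs none of the results above. DESeq2 1.42.0, other scalings and filters, the largest transcript row, no block, mice at 7 months and leaving out each library or mouse were alternatives. Intervals and limits at 0 counts cover counting error or the spread between these libraries only.

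The members, gene lists and tests were chosen with earlier results of these data known. All 8 members are named. From each list at most 6 called genes with the smallest p are named per comparison, or, where none was called, up to 2 with the highest mean CPM; the 3 most correlated genes of each member and Scgb1a1, Scgb3a2, Epcam, Cdh1, Foxa3, Foxa2, Clca1, Tff2, Bpifa1, Bpifb1, Fcgbp and Ern2 are always named. Values of Muc2, Jchain, Mzb1, Pou2af1, Derl3, Tnfrsf17, Dnah5, Scgb3a1, Foxj1, Tubb4b, Sec14l3, Aqp5, Ltf, Krt15, Krt5, Krt14, Trp63, Ngfr, Rag1 and Cd79a are named outside that rule. These genes were chosen after their values were seen. Transcript lengths are from GENCODE M21 and promoter sequences from RefSeq GRCm38.p6. Protein sequences were not used here, and 1 gene of the granule release list is not reported here.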

Additional observations from a re-analysis of the deposited data

Results flagged for a closer look

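The ADC tumor of mouse m378 had 71.1 CPM of Muc20, far above the other 5 tumors, which had 4.61 to 20.6 CPM; normal lungs had 3.78 to 13.8 CPM. The gap to the next tumor was more than 0.625 of the range of the 6 tumors, Dixon's limit for a group of this size. The same check was made in 16 groups (8 genes in tumors and in normal lungs) and pointed to this library alone, and chance points to about 1 in 20 groups. The shorter Muc20 transcript, which shares 0 exon bases with Muc4, had 60.1 CPM in that tumor, against 10.4 CPM in the normal lung of mouse m378. The cause was not tested.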

How the results depend on the processing

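Muc4 kept its direction in every setting against normal lungs, as did Muc1 and Spdef, whereas Muc5ac and Pigr changed sign in tumors, ADN tumors and ADC tumors. The mouse block was removed in 1 setting. Without it 2 members were called in tumors (Muc4 and Spdef), beside 2257 genes in all (1752 with the block). In ADN tumors 1 member was called (Spdef), beside 1836 genes in all (1141 with the block). Muc5ac became 1.40 in tumors and 0.40 in ADC tumors. The ADC minus ADN differences of Muc1, Muc4 and Muc20 became 8.5e-05, 0.13 and 0.87. Without the block 1517 genes were called in ADC tumors (753 with it) and 3 between ADC and ADN tumors (1 with it). On library totals, and on library totals without Rn45s, 0 members were called in tumors: Muc4 was 0.82 (adjusted p = 0.0825) and 0.86 (adjusted p = 0.0942), while the median of all genes was -0.23 and -0.19, against -0.04 after TMM scaling. On library totals 358 genes were called higher and 1707 lower in tumors, against 544 and 1208 after TMM scaling. DESeq2 called 2 members in tumors and 2 in ADN tumors (Muc4 and Spdef each time), with 3349, 3003, 1863 and 136 genes called in tumors, ADN tumors, ADC tumors and between ADC and ADN tumors. Without a filter on low counts 5 genes were called between ADC and ADN tumors. With the largest transcript row 470 genes were called in ADC tumors, and the Muc20 difference was 0.019. In mice at 7 months 2 members were called in tumors (Muc1 and Muc4), beside 3019 genes in all. The fit of the tumor kinds holds 1 ADN tumor there, so its members are given as changes only. Muc4 was 1.47 in the ADN tumor, and in ADC tumors Muc1 was 1.13, Muc4 0.89 and Pigr -1.59. That fit called 3231 genes in ADC tumors of these mice, a count with the same limit that is not read as a result. Signs turned there for Muc5b (-0.37) and Pigr (-0.42) in tumors, Muc5ac (-5.26) and Pigr (2.29) in ADN tumors, Muc5b (-2.55), Agr2 (-2.21) and Pigr (-1.59) in ADC tumors, and Muc1 (0.71), Muc5ac (3.24) and Pigr (-3.88) between ADC and ADN tumors.

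Leaving out a library or a mouse gave 911 (without the normal lung of mouse m378) to 3396 genes (without the ADC tumor of mouse m335) and 0 to 2 members called in tumors, 0 (without the ADN tumor of mouse m335) to 1998 genes (without the ADC tumor of mouse m335) and 0 to 2 members in ADN tumors, 71 (without the normal lung of mouse m378) to 1071 genes (without the ADC tumor of mouse m335) and 0 to 1 member in ADC tumors, and 0 to 3 genes between the kinds. In tumors Muc5ac ranged between -1.25 and 0.69 and Pigr between -0.68 and 1.07. In ADN tumors Muc5ac ranged between -0.55 and 1.91 and Pigr between -1.76 and 1.16. In ADC tumors the ranges were -2.09 to 0.13 for Muc5ac, -2.57 to 1.89 for Muc5b, -0.32 to 1.14 for Muc20, -2.51 to 2.95 for Agr2 and -1.60 to 2.73 for Pigr. Between ADC and ADN tumors they were -0.55 to 0.57 for Muc1, -0.44 to 0.41 for Muc4, -1.26 to 0.16 for Muc20 and -2.76 to 2.46 for Pigr. Where a removal left an arm with 1 or 2 tumors, the spread was taken from all groups. The cause of these changes was not tested. Muc5ac, Agr2 and Spdef rest on at most 171 counts in a library, which limits their precision.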
